A study of Mus musculus with 12 samples.

Results

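The subject is 9 genes of the formative, primed and epithelial programmes in mouse embryonic stem (ES) cells: the transcription factors Otx2, Pou3f1, Grhl2 and Foxd3, the keratins Krt8 and Krt18, the cadherins Cdh1 and Cdh2, and the adhesion molecule Epcam. They were chosen by symbol, and each was read from the probe set annotated to that symbol alone, taking the one with the highest mean over 12 arrays where a gene had several. All 9 were found among 22180 genes measured this way; Pou3f1 and Foxd3 lie on chromosome 4, Cdh1 on 8, Otx2 on 14, Grhl2, Krt8 and Krt18 on 15, Epcam on 17 and Cdh2 on 18. The cells were of line K3, and the study asked which genes are targets of ERRb, an orphan nuclear receptor and product of the Esrrb gene. KO/ERRb-wt cells carried a knockout of the gene and received a lentivirus expressing ERRb, KO/mock cells carried the knockout with a mock treatment, and WT/mock cells had the intact gene with a mock treatment. Of the 4 arrays in each group, 2 came from each of 2 clones: 12-1 and 12-3 for KO/ERRb-wt, 8-3 and 8-4 for KO/mock, and 5-2 and 5-5 for WT/mock. All cells grew in N2B27, a serum-free medium, with inhibitors of GSK3 and MEK and with LIF, and then spent 3 days in N2B27 with the same inhibitors and doxycycline, which all groups received; LIF is not listed for those days. The sources used here do not give the virus's promoter, the lesion in the gene or the role of doxycycline.

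Naive ES cells correspond to the epiblast before implantation. On leaving that state they pass through a formative stage, in which Otx2 and Pou3f1 are switched on and Grhl2 and Foxd3 act at enhancers, and then reach a primed stage that corresponds to the epithelial epiblast after implantation. Cdh1 (E-cadherin) and Epcam hold ES cells and epithelial cells together, Krt8 and Krt18 pair to form the keratin filaments of simple epithelia, and Cdh2 (N-cadherin) is the cadherin of mesenchymal and neural cells. Medium with both inhibitors holds ES cells in the naive state.

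Values were RMA log2 expression, on which a difference of 1 is 2-fold. Array medians lay between 5.00 and 5.07. Arrays of one group come from 2 clones. The limma fit used the same correlation between arrays of a clone for all probe sets, and it was small (0.0286). Its p-values thus treat the 4 arrays of a group as nearly independent and may understate the spread between clones. They do not measure the spread between independent derivations of a line. As a check of the cell type, 8 naive and core pluripotency genes read between 8.10 and 12.4 on every array, while the mean of 10 feeder fibroblast markers lay between 4.76 and 4.95. Means of the naive and core list lay between 9.96 and 10.06 on KO/ERRb-wt, 10.14 and 10.19 on KO/mock and 10.20 and 10.33 on WT/mock arrays. Of the 8, 2, 4 and 5 were called (limma, adjusted p under 0.05) between KO/mock and WT/mock, KO/ERRb-wt and KO/mock, and KO/ERRb-wt and WT/mock. Over all genes 5.58%, 4.4% and 20.8% were called. Between KO/ERRb-wt and KO/mock the Tfcp2l1 call ended without any 1 of the 8 arrays. The Klf4 call ended without 6 of them and the Nanog call without 2, and Tbx3 held. All called genes of the list were lower except Klf2, higher between KO/ERRb-wt and WT/mock (0.41). In that comparison Tbx3 (-1.21), Klf4 (-0.78), Nanog (-0.40) and Tfcp2l1 (-0.21) were lower. The part of that difference in the results was not tested. The targeted gene itself did not follow the labels: Esrrb averaged 6.73 on the arrays labelled KO/ERRb-wt, 7.66 on those labelled KO/mock and 7.38 on those labelled WT/mock. KO/mock did not differ from WT/mock by a call (0.28, adjusted p = 0.324), and KO/ERRb-wt was lower than both (adjusted p = 0.00436 and 0.00557). Whether the probe set lies within the lesion or the viral insert is not known here, so it may not check the labels. Directions are therefore given for arrays as labelled. Genes of chromosome 14 were lower on all 8 arrays labelled knockout, which touches Otx2. RNA came from whole cultures, in which fewer cells of a type and less RNA per cell cannot be told apart.

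Grhl2 and both keratins differed between KO/mock and WT/mock arrays. Of the 9 genes, 3 differed at an adjusted p under 0.05 (limma over all 41345 probe sets, here "called"): Grhl2 was higher, and Krt8 and Krt18 were lower. Over all genes 5.58% were called, 2.11% higher and 3.47% lower. The median difference of the 9 was -0.0044, against 0.0042 over all genes. The 4 arrays of one group all lay beyond the 4 of the other for 4 of the 9 genes, the called ones and Epcam, against 15.9% of all genes (8.44% higher and 7.48% lower).

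In the arrays labelled KO/ERRb-wt against those labelled KO/mock, 1 of the 9 genes was called, and it was Grhl2, higher again. Over all genes 4.4% were called, 1.24% higher and 3.17% lower. Arrays did not overlap for Grhl2 and Cdh2, both higher, against 17% of all genes (7.31% higher and 9.69% lower). The median difference of the 9 was 0.08, against 0.02 over all genes. None of the keratin or adhesion genes was called in this comparison. Setting KO/ERRb-wt against WT/mock, 4 of the 9 were called, with Grhl2 and Cdh2 higher and Krt18 and Epcam lower, where 20.8% of all genes were called, 8.82% higher and 12% lower. Arrays did not overlap for the same 4 genes, against 28.5% of all genes (13.5% higher and 15% lower), and the median of the 9 was 0.03, as over all genes. The comparisons share arrays, so their counts are not independent of each other.

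**Figure D1:**
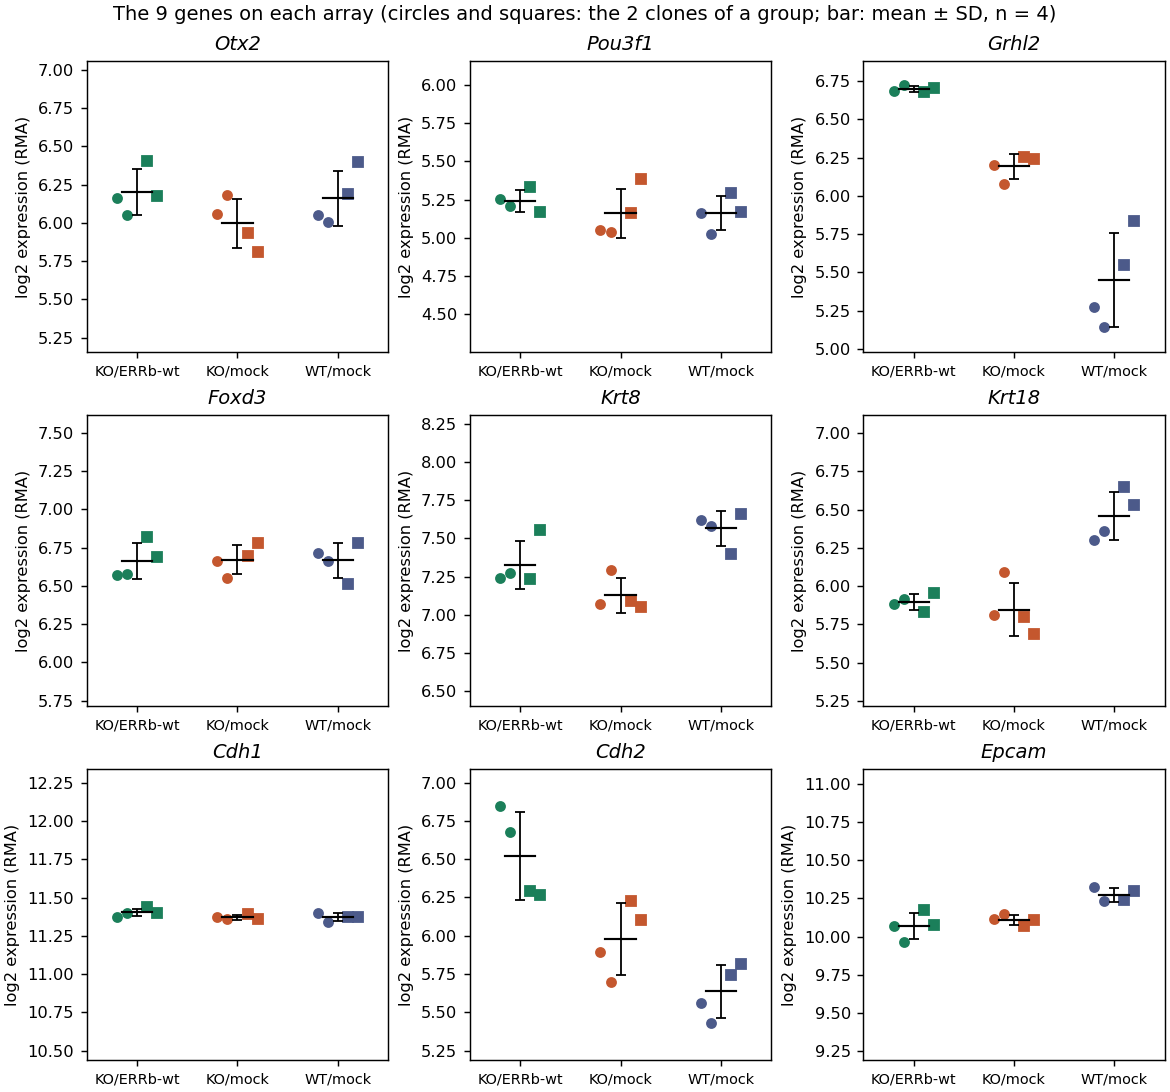
RMA log2 expression of each of the 9 genes (y axis, each panel spanning the same log2 width) on the 12 arrays, by labelled group (x axis); circles and squares are the 2 clones of a group, and bars give the mean ± SD (n = 4). Mean Grhl2 and Cdh2 are highest on KO/ERRb-wt and lowest on WT/mock, Krt18 is highest on WT/mock, and Cdh1 stays between 11.3 and 11.4 on all arrays.

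**Figure D2:**
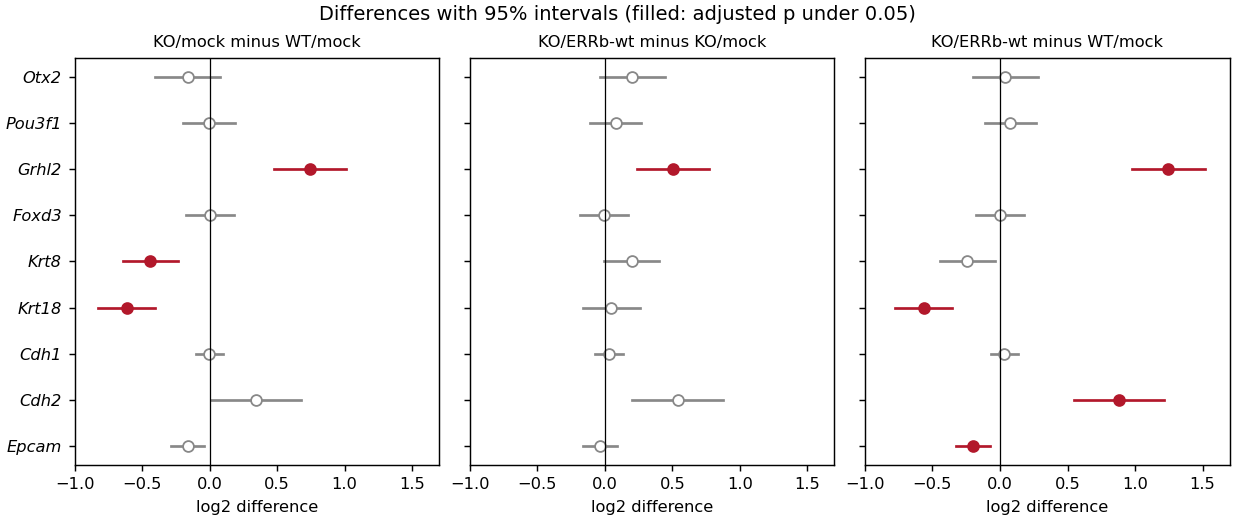
Log2 differences of the 9 genes (x axis) in the 3 comparisons, with 95% intervals from the limma fit; filled points have an adjusted p under 0.05. Grhl2 lies right of 0 in all 3 panels, and the 95% intervals of Pou3f1, Foxd3 and Cdh1 include 0 in each.

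Grhl2, a Grainyhead-like factor that opens enhancers of epithelial genes, had the widest range among the 9 and the largest differences from WT/mock; between KO/ERRb-wt and KO/mock Cdh2 differed by more, without a call. It read 6.68, 6.72, 6.68 and 6.70 on the arrays labelled KO/ERRb-wt. On those labelled KO/mock it read 6.20, 6.08, 6.25 and 6.24, and on those labelled WT/mock 5.28, 5.14, 5.55 and 5.83. The 3 groups did not overlap, and the KO/ERRb-wt arrays were the closest together, with an SD of 0.020 against 0.31 on WT/mock. Its range over the 12 arrays, 1.58, was larger than that of 99.3% of genes.

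The difference in Grhl2 between KO/mock and WT/mock was 0.74 ± 0.12 (SE; limma, adjusted p = 0.00547), or 1.67-fold. Against WT/mock, KO/ERRb-wt was higher by 1.25 ± 0.12 (adjusted p = 6.03e-05), or 2.37-fold. Both calls held without any single array, but with clone averages, 2 against 2, the call between KO/mock and WT/mock ended (adjusted p = 0.17). The step between KO/ERRb-wt and KO/mock, 0.50 ± 0.12 (adjusted p = 0.0486), was close to the threshold: without any 1 of the 8 arrays it was 0.46 to 0.52 with adjusted p from 0.0668 to 0.124. The exact two-sided permutation test over arrays gave p = 0.0286 in each comparison, the smallest that 4 against 4 arrays allow. That test shuffles arrays as if independent, although 2 share each clone, so its p-value does not account for clones. The WT/mock clones were themselves apart, at a mean of 5.21 for clone 5-2 and 5.69 for clone 5-5, and the call between KO/mock and WT/mock ended without KO/mock clone 8-4, at 0.69 (adjusted p = 0.083).

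The paralogues did not show Grhl2's pattern. Grhl3 averaged 7.36 ± 0.10 on KO/ERRb-wt, 7.93 ± 0.09 on KO/mock and 7.87 ± 0.05 on WT/mock (SD, n = 4 each), so it fell on the arrays on which Grhl2 was highest, by 0.57 against KO/mock (adjusted p = 0.00209) and by 0.51 against WT/mock (adjusted p = 0.000541). Grhl1, named after its values were seen, averaged 5.81 ± 0.16 on KO/ERRb-wt, 5.87 ± 0.23 on KO/mock and 6.00 ± 0.08 on WT/mock, and was not called in any comparison.

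Otx2, a homeobox factor that drives the move out of the naive state, was not called in any comparison. It read 6.16, 6.05, 6.41 and 6.18 on KO/ERRb-wt arrays. KO/mock arrays read 6.06, 6.18, 5.94 and 5.81, and WT/mock arrays 6.05, 6.00, 6.19 and 6.40. The groups overlapped in every comparison. KO/mock differed from WT/mock by -0.16 (95% interval -0.41 to 0.079; adjusted p = 0.55). KO/ERRb-wt differed from KO/mock by 0.20 (-0.039 to 0.45; adjusted p = 0.354) and from WT/mock by 0.040 (-0.20 to 0.28; adjusted p = 0.858).

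Otx2 lies on chromosome 14, whose 342 genes with a mean log2 value of at least 6 had a median difference of -0.41 between KO/mock and WT/mock and of -0.48 between KO/ERRb-wt and WT/mock. The median of the other chromosomes' genes was 0.03 and -0.01. Otx2 was thus less negative than 86.3% of its chromosome's genes in the first of these comparisons and 91.8% in the second. With each array's chromosome 14 shift subtracted from the genes of that chromosome, Otx2 differed by 0.27 ± 0.11 between KO/mock and WT/mock (adjusted p = 0.255), of opposite sign to the value as deposited. KO/ERRb-wt was then higher than WT/mock by 0.50 ± 0.11, which was called (adjusted p = 0.0104). The subtraction moves Otx2 by about the size of the chromosome's shift, whether or not Otx2 shared in it. That shift was -0.43 between KO/mock and WT/mock and -0.47 between KO/ERRb-wt and WT/mock, relative to other chromosomes. The sign change and the call thus come from the subtraction and support nothing about Otx2. Whether Otx2 shared in the shift was not tested.

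**Figure D3:**
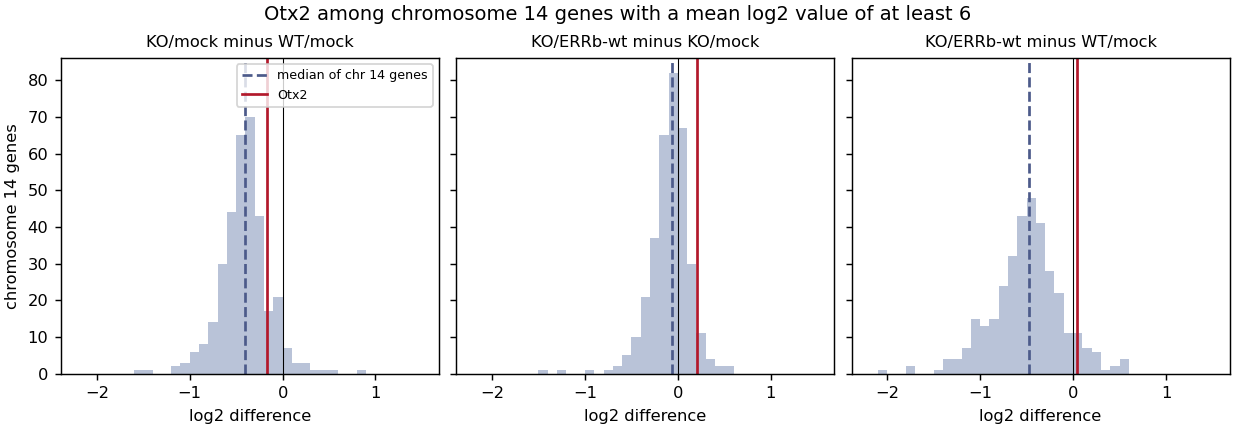
Distribution of log2 differences (x axis) of 342 genes on chromosome 14, those averaging at least 6 on the log2 scale (y axis, number of genes), in the 3 comparisons; the dashed line is their median, the red line Otx2 and the thin black line 0. Otx2 lies right of the dashed line in each panel.

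Pou3f1, a POU factor also called Oct6 and a marker of the formative state, read 5.26, 5.21, 5.33 and 5.17 on the arrays labelled KO/ERRb-wt. On those labelled KO/mock it read 5.05, 5.04, 5.16 and 5.38, and on those labelled WT/mock 5.16, 5.03, 5.30 and 5.17. The groups overlapped throughout and no comparison was called. Differences were -0.0044 for KO/mock minus WT/mock, 0.081 for KO/ERRb-wt minus KO/mock and 0.077 against WT/mock. Their 95% intervals lay between -0.19 and 0.27. Pou3f1's mean of 5.19 lay under the median gene's 5.53. The values have no detection call, so Pou3f1 may not have been above background, where a change would not show.

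Foxd3, a forkhead factor that silences naive enhancers during the exit and later marks neural crest, read 6.57, 6.58, 6.82 and 6.69 on KO/ERRb-wt arrays. KO/mock arrays read 6.66, 6.55, 6.70 and 6.78, and WT/mock arrays 6.72, 6.66, 6.51 and 6.78. Its mean was 6.66 on KO/ERRb-wt, 6.67 on KO/mock and 6.67 on WT/mock, and the 95% intervals of the 3 differences lay between -0.19 and 0.18. Smaller changes than these intervals span were not detectable with 4 arrays a group.

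Krt8 and Krt18, partners in the filaments of simple epithelia that also mark trophoblast and primitive endoderm, both lie on chromosome 15, as does Grhl2. Their promoter windows, 250 bases before to 50 after the start in the RefSeq annotation of GRCm38.p6, are shown because both genes were called lower on KO/mock than on WT/mock. Letters in capitals match AGGTCA, the half-site of nuclear receptors, or CACCTG, the E-box bound by Snail and Zeb repressors, on either strand. The windows are Krt8 at chr15:102004293-102004592, minus strand, and Krt18 at chr15:102027966-102028265, plus strand.
Krt8: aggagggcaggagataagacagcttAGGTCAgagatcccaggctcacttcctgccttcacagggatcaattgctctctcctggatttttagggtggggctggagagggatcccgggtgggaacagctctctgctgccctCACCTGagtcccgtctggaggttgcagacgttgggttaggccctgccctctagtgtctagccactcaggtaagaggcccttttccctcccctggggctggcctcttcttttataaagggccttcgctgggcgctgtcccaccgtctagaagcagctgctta
Krt18: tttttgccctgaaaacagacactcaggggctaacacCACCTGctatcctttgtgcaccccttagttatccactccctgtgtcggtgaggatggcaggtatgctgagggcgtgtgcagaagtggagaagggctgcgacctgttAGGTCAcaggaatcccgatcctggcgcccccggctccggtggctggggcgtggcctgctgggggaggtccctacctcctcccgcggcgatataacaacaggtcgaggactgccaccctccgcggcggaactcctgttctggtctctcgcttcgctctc
Each window held 1 match to AGGTCA and 1 to CACCTG, which 16.3% and 20.2% of 32851 promoter windows of this length hold. Neither held TNAAGGTCA, the extended half-site bound by estrogen-related receptors, of which AGGTCA is the end (1.28% of windows), nor AACNGGTT, the Grainyhead-like site (2.09%). The matches describe these letters and show no binding. Promoter windows were matched by symbol for 5 of the 9 genes, with 8 windows in all, and the 4 windows of Otx2 and the 1 of Foxd3 held none of the 4 motifs.

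Krt18 read 5.88, 5.91, 5.83 and 5.95 on the arrays labelled KO/ERRb-wt. On those labelled KO/mock it read 5.81, 6.09, 5.79 and 5.69, and on those labelled WT/mock 6.30, 6.36, 6.64 and 6.53. Every array labelled knockout lay below every WT/mock array, and the KO/ERRb-wt and KO/mock arrays overlapped. Krt18 fell by 0.61 between KO/mock and WT/mock (SE 0.10; adjusted p = 0.00431; 0.654-fold) and by 0.56 between KO/ERRb-wt and WT/mock (SE 0.10; adjusted p = 0.00211), while KO/ERRb-wt minus KO/mock was 0.048 (95% interval -0.16 to 0.26). No single array ended either call, but leaving out KO/mock clone 8-4 ended the call between KO/mock and WT/mock, at -0.51 (adjusted p = 0.0681). A second Krt18 probe set, with a mean of 3.84, lay low enough that it may not have been above background, for which the values have no call. It differed by 0.055 between KO/mock and WT/mock and by 0.25 between KO/ERRb-wt and WT/mock, neither called, and with both probe sets averaged Krt18 was not called (differences of -0.28 and -0.16, adjusted p = 0.187 and 0.351).

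Krt8 read 7.24, 7.27, 7.23 and 7.56 on KO/ERRb-wt arrays. KO/mock arrays read 7.07, 7.30, 7.09 and 7.05, and WT/mock arrays 7.62, 7.58, 7.40 and 7.66. KO/mock and WT/mock did not overlap, and KO/ERRb-wt overlapped both. Krt8 fell by 0.44 between KO/mock and WT/mock (SE 0.09; adjusted p = 0.0226; 0.738-fold), a call that ended without any 1 of 5 of the 8 arrays, namely KO/mock clone 8-3 replicate 1, both of clone 8-4 and both of WT/mock clone 5-2, with adjusted p up to 0.0797 and values of -0.50 to -0.41 over all 8 arrays left out. Leaving out WT/mock clone 5-2 or KO/mock clone 8-4 also ended it, at -0.40 (adjusted p = 0.186) and -0.38 (adjusted p = 0.198). KO/ERRb-wt differed from KO/mock by 0.20 (95% interval -0.0053 to 0.40; adjusted p = 0.281). From WT/mock it differed by -0.24 (-0.44 to -0.037; adjusted p = 0.11), which became a call, at -0.32 (adjusted p = 0.0311), without KO/ERRb-wt clone 12-3 replicate 2, the array at 7.56.

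The other keratins measured beside them, Krt7 and Krt19, were not called in any comparison. Of 10 trophoblast markers limma called 0 between KO/mock and WT/mock (2 at an unadjusted p under 0.05), where 5.58% of all genes were called. It called 0 between KO/ERRb-wt and KO/mock (0 at that p), against 4.4% of all genes. Between KO/ERRb-wt and WT/mock it called 1, against 20.8% of all genes, namely Cdx2, higher on KO/ERRb-wt (0.54, adjusted p = 0.0221). Without KO/ERRb-wt clone 12-1 replicate 2 Cdx2 differed by 0.39 (adjusted p = 0.0552). Its call also ended without clone 12-1 or 5-2 (adjusted p up to 0.135). The mean of the trophoblast list lay between 5.30 and 5.37 on KO/ERRb-wt arrays, 5.20 and 5.30 on KO/mock arrays and 5.05 and 5.26 on WT/mock arrays. The mean of 10 primitive endoderm markers lay between 5.53 and 5.58 on KO/ERRb-wt, 5.48 and 5.65 on KO/mock and 5.44 and 5.60 on WT/mock arrays. In that list Lama1 and Gata4 were called between KO/mock and WT/mock, at 0.58 and -0.51 (Gata4 lies on chromosome 14, as does Sox7), calls that ended without clone 5-2 or 8-3 for Lama1 and without 5-2 or 8-4 for Gata4 (adjusted p up to 0.0677 and 0.134). KO/ERRb-wt had Gata4 lower than WT/mock (-0.56), and Lama1 (-0.66) and Sox7 (-0.63) lower and Dab2 (0.34) higher than KO/mock. The Sox7 call ended without 5 and the Dab2 call without 7 of the 8 arrays (adjusted p up to 0.08 and 0.107). That of Lama1 against KO/mock ended without clone 12-3 or 8-3 (adjusted p up to 0.0838). The part of such cells in the keratin differences was not tested.

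Cdh1, the adhesion receptor of ES cell colonies, was among the steadiest genes on the arrays. It read 11.38, 11.40, 11.44 and 11.40 on those labelled KO/ERRb-wt, 11.38, 11.36, 11.39 and 11.36 on those labelled KO/mock, and 11.40, 11.34, 11.37 and 11.37 on those labelled WT/mock. Its range over 12 arrays was 0.094, and 0.0451% of genes had a smaller one. The 95% intervals of its 3 differences lay between -0.10 and 0.13. A second Cdh1 probe set, with a mean of 6.68, was not called either, at 0.026 for KO/mock minus WT/mock, -0.071 for KO/ERRb-wt minus KO/mock and -0.045 against WT/mock.

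Cdh2, the mesenchymal and neural cadherin, had the widest range after Grhl2 among the 9, 1.41. It read 6.85, 6.68, 6.29 and 6.27 on the arrays labelled KO/ERRb-wt. On those labelled KO/mock it read 5.89, 5.70, 6.23 and 6.10, and on those labelled WT/mock 5.56, 5.43, 5.74 and 5.81. All KO/ERRb-wt arrays lay above both other groups, and clone 12-1 lay above clone 12-3, at means of 6.76 and 6.28. KO/mock and WT/mock overlapped.

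Cdh2 rose by 0.88 ± 0.15 in KO/ERRb-wt against WT/mock (SE; adjusted p = 0.00225; 1.84-fold), and was called without any single array (0.77 to 0.96) or clone (0.64 to 1.12). With clone averages, 2 against 2, the same 0.88 was not called (adjusted p = 0.0677). The difference of 0.54 ± 0.15 between KO/ERRb-wt and KO/mock missed the threshold (adjusted p = 0.0815; 95% interval 0.20 to 0.87), and so did that of 0.34 ± 0.15 between KO/mock and WT/mock (adjusted p = 0.296). A second Cdh2 probe set, with a mean of 4.21, lay low enough that it may not have been above background, for which the values have no call. It differed by 0.73 between KO/ERRb-wt and WT/mock (adjusted p = 0.00591). The differences of 0.53 between KO/ERRb-wt and KO/mock and of 0.19 between KO/mock and WT/mock were not called.

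Epcam, an epithelial adhesion molecule of ES cells, read 10.07, 9.97, 10.17 and 10.07 on KO/ERRb-wt arrays. KO/mock arrays read 10.11, 10.15, 10.07 and 10.11, and WT/mock arrays 10.32, 10.23, 10.24 and 10.30. All 8 arrays labelled knockout lay below all WT/mock arrays. Epcam fell by 0.20 between KO/ERRb-wt and WT/mock (SE 0.06; adjusted p = 0.0335; 0.87-fold), a call that ended without any 1 of 7 of the 8 arrays (values of -0.24 to -0.17, adjusted p up to 0.0915), KO/ERRb-wt clone 12-3 replicate 1 being the exception. The difference of -0.16 ± 0.06 between KO/mock and WT/mock was not called (adjusted p = 0.163). The exact permutation test over arrays, which does not account for clones, gave p = 0.0286 there. Between KO/ERRb-wt and KO/mock Epcam differed by -0.04, with a 95% interval of -0.16 to 0.09. Its promoter window held 2 matches to CACCTG and none to AGGTCA.

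Of 20 genes of the wider formative and primed programme listed beside the 9, 18 were measured. Between KO/mock and WT/mock 3 were called, where 5.58% of all genes were, and all were higher: Lef1, a Wnt-responsive factor, by 0.96 ± 0.14, the DNA methyltransferase gene Dnmt3b by 0.66 ± 0.12 and Sox4 by 0.65 ± 0.13. KO/ERRb-wt against KO/mock had 4 called, against 4.4% of all genes, with Dnmt3b (0.59) and the ligand gene Nodal (0.26) higher and Utf1 (-0.35) and Sox4 (-0.54) lower. Against WT/mock, KO/ERRb-wt had 4 called, against 20.8% of all genes, with Dnmt3b (1.25) and Lef1 (0.90) higher and Utf1 (-0.27) and Zic5 (-0.47) lower. Fgf5, the usual marker of the primed epiblast, was not called in any comparison. It averaged 4.79 ± 0.27 on KO/ERRb-wt, 4.71 ± 0.26 on KO/mock and 4.50 ± 0.26 on WT/mock (SD, n = 4 each). At such levels Fgf5 may not have been above background, for which the values have no call. The list's median differences were 0.11 for KO/mock minus WT/mock, -0.04 for KO/ERRb-wt minus KO/mock and 0.10 against WT/mock, where all genes had 0.0042, 0.02 and 0.03; other lists' medians are given in this order of comparisons.

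Dnmt3b had Grhl2's order of groups, at 10.98 ± 0.02 on KO/ERRb-wt, 10.39 ± 0.27 on KO/mock and 9.73 ± 0.14 on WT/mock. Its call between KO/ERRb-wt and KO/mock ended without either array of KO/ERRb-wt clone 12-3 or of KO/mock clone 8-3 (adjusted p up to 0.065). The same Dnmt3b call ended without clone 12-1, 12-3 or 8-3 (adjusted p up to 0.13), and the lowest difference with a clone left out was 0.37. In the same comparison the calls of Nodal and Sox4 ended without 7 and 8 of the 8 arrays, with adjusted p up to 0.101 and 0.106; for Nodal the exception was KO/mock clone 8-4 replicate 1. Leaving out a clone ended the Dnmt3b call between KO/mock and WT/mock (without 5-2 or 8-4; adjusted p up to 0.126), that of Sox4 (without 5-2, 8-3 or 8-4; up to 0.0931) and that of Utf1 between KO/ERRb-wt and KO/mock (without 12-3 or 8-3; up to 0.0623). Zic5, which lies on chromosome 14, was not called without clone 12-1 (adjusted p = 0.0602). With clone averages no list gene named here was called between KO/mock and WT/mock or between KO/ERRb-wt and KO/mock.

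Epithelial genes moved in both directions. Of 20 listed, 19 were measured. Between KO/mock and WT/mock 3 were called, against 5.58% of all genes: the membrane protease gene St14 (-0.54) and its inhibitor Spint1 (-0.32) were lower and the vesicle GTPase gene Rab25 (0.37) was higher. KO/ERRb-wt against KO/mock had 5 called, 1 higher and 4 lower, where 1.24% of all genes were higher and 3.17% lower: the splicing regulator Esrp1 rose by 0.67 ± 0.06 (adjusted p = 0.00032), and Spint1, Grhl3 and the tight-junction gene Cldn4 fell by 0.58, 0.57 and 0.64. Against WT/mock, KO/ERRb-wt had 8 called, 1 higher and 7 lower, where 8.82% and 12% of all genes were, Esrp1 at 0.77, Spint1 at -0.91 and Cldn4 at -0.96 among them. Medians of the list were -0.11, -0.11 and -0.15.

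Esrp1 read 8.48 to 8.63 on KO/ERRb-wt arrays, 7.82 to 7.91 on KO/mock arrays and 7.66 to 7.82 on WT/mock arrays, so that KO/ERRb-wt stood apart from both and the other groups differed by 0.10 (adjusted p = 0.476). Rab25's call ended without 6 of the 8 arrays (adjusted p up to 0.121; without KO/mock clone 8-4 replicate 2 or WT/mock clone 5-5 replicate 2 it held), and that of Spint1 between KO/mock and WT/mock ended without KO/mock clone 8-4 replicate 2 or either array of WT/mock clone 5-2 (adjusted p up to 0.063). St14's call and that of Spint1 in this comparison also ended without clone 5-2 or 8-4 (adjusted p up to 0.0959 and 0.165), and that of Cldn4 between KO/ERRb-wt and KO/mock without 12-1, 12-3 or 8-3 (up to 0.0584).

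Of 12 listed genes of cadherin and catenin adhesion, 2 were called between KO/mock and WT/mock, both lower, where 3.47% of all genes were lower: vinculin (Vcl), which links cadherin complexes to actin and lies on chromosome 14, at -0.51 ± 0.06, and the atypical cadherin gene Celsr1 at -0.81 ± 0.13. In KO/ERRb-wt against KO/mock 2 were called, both lower, where 3.17% of all genes were: alpha-catenin (Ctnna1) at -0.23 and plakoglobin (Jup) at -0.26. Each of these ended without 7 of the 8 arrays (adjusted p up to 0.0933 and 0.104), the exception in both cases being KO/mock clone 8-4 replicate 1. In KO/ERRb-wt against WT/mock 5 were called, all lower, where 12% of all genes were, among them Celsr1 at -1.21, Vcl at -0.73, Ctnna1 at -0.36 and Nectin2 at -0.30. Medians of the list were -0.08, -0.12 and -0.12. Celsr1's call between KO/mock and WT/mock ended without clone 5-2 or 8-4 (adjusted p up to 0.0797), and that of Nectin2 without 12-1 or 5-2 (up to 0.0953). Beta-catenin (Ctnnb1), p120 catenin (Ctnnd1) and P-cadherin (Cdh3) were not called in any comparison.

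Among 10 mesenchymal genes, 9 were measured, and vimentin (Vim), a filament protein of mesenchymal and ES cells, rose with Cdh2 in the comparison of KO/ERRb-wt with WT/mock. It averaged 10.89 ± 0.01 on KO/ERRb-wt, 10.71 ± 0.17 on KO/mock and 10.15 ± 0.16 on WT/mock (SD, n = 4 each), and the differences from WT/mock were 0.74 for KO/ERRb-wt (adjusted p = 0.000321) and 0.57 for KO/mock (adjusted p = 0.0056). The repressor Snai2 was lower on both, at -0.47 for KO/ERRb-wt and -0.51 for KO/mock. Leaving out a clone ended the Vim call of KO/mock (without 5-2 or 8-4; adjusted p up to 0.0727) and the Snai2 calls of KO/ERRb-wt (without 12-3 or 5-2; up to 0.0793) and KO/mock (without 5-2 or 8-3; up to 0.126). Snai1 was higher (0.46) and Mmp2 lower (-0.35) on KO/ERRb-wt than on WT/mock, calls that ended without 5 and 6 of the 8 arrays (adjusted p up to 0.116 and 0.124), among them both KO/ERRb-wt clone 12-1 arrays and both WT/mock clone 5-2 arrays in each case. Of the 9, limma called 0 between KO/ERRb-wt and KO/mock (1 at an unadjusted p under 0.05), where 4.4% of all genes were called. Prrx1, a mesenchymal homeobox gene, had the smallest p there, with a difference of 0.17 (adjusted p = 0.265). Medians of the list were -0.09, 0.13 and -0.0039. Of 10 feeder fibroblast markers limma called 0 between KO/mock and WT/mock (0 at an unadjusted p under 0.05), where 5.58% of all genes were called. It called 0 between KO/ERRb-wt and KO/mock (2 at that p), against 4.4% of all genes. Between KO/ERRb-wt and WT/mock it called 1, Thy1 at 0.35, against 20.8% of all genes. That call ended without KO/ERRb-wt clone 12-3 replicate 2, WT/mock clone 5-2 replicate 2 or either array of WT/mock clone 5-5 (adjusted p up to 0.0877). Of 10 markers of neural and neural crest cells, which also express Cdh2, 3 were called between KO/ERRb-wt and WT/mock, where 20.8% of all genes were. Tubb3 was higher (0.71), and Sox1 (-0.67) and Ncam1 (-0.60) were lower. KO/ERRb-wt against KO/mock had 2 called, against 4.4% of all genes, with Tubb3 higher (0.67) and Ncam1 lower (-0.54). Between KO/mock and WT/mock 1 was called, against 5.58% of all genes, with Sox1 lower (-0.62). The Tubb3 call against KO/mock ended without 2 and the last Sox1 call without 4 of the 8 arrays. That of Ncam1 against KO/mock ended without clone 12-3 (adjusted p = 0.116). The list's mean lay between 5.65 and 5.72 on KO/ERRb-wt, 5.54 and 5.72 on KO/mock and 5.60 and 5.70 on WT/mock arrays. The part of such cells in the Cdh2 difference was not tested.

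**Figure D4:**
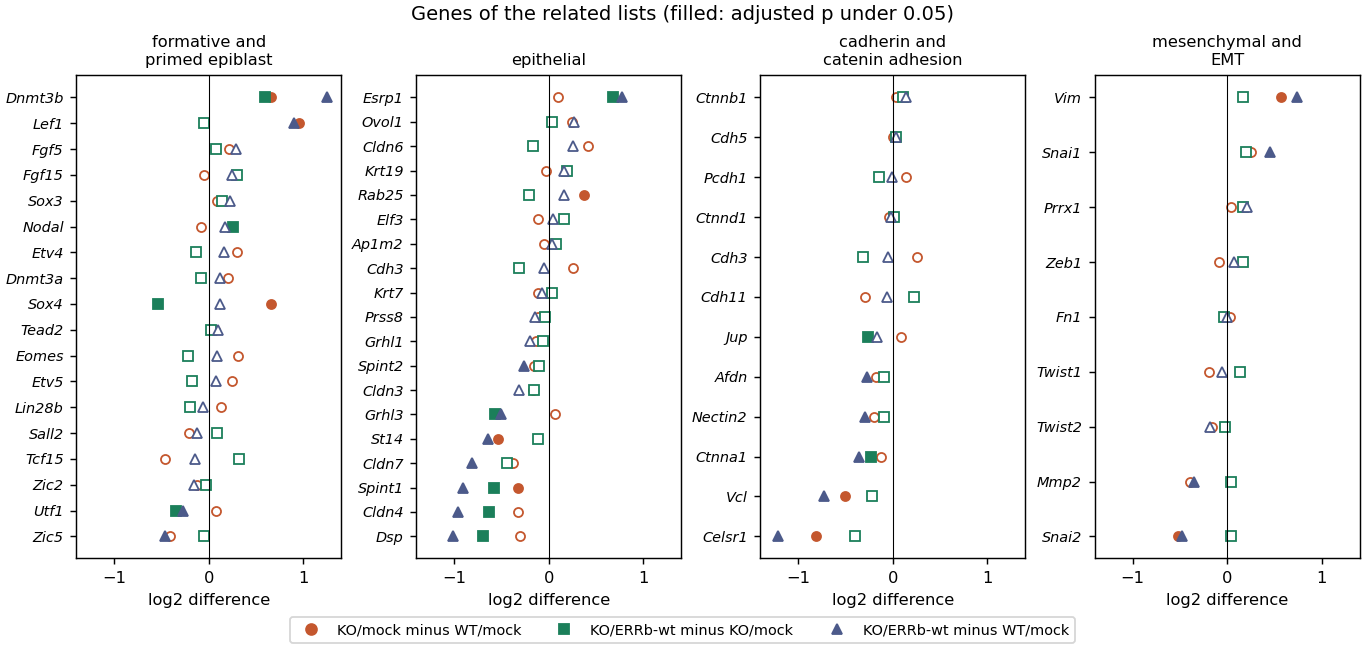
Log2 differences (x axis) of the genes of the 4 related lists (rows) in the 3 comparisons, by marker shape and colour; filled markers have an adjusted p under 0.05. Esrp1 and Dnmt3b lie furthest right in their lists for KO/ERRb-wt minus WT/mock, and Dsp and Celsr1 furthest left in theirs.

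Genes with a pattern near that of each called member were looked for among 9107 protein-coding genes with a mean log2 value of at least 6, by the root mean square distance between mean-centred values over the 12 arrays. The arrays share groups and clones, so nearness is a description of these arrays. Nearest to Grhl2 were the co-receptor gene Tgfbr3 (0.12 log2 units), Pmel (0.12) and Zfp428 (0.13), against Grhl2's own SD of 0.56. Nearest to Cdh2 were the Notch ligand gene Jag1 (0.11), Bend3 (0.14) and the kinase gene Sgk1 (0.16), against an SD of 0.44. Krt18 had Pbk, Adgra3 and Elp3 nearest (0.09 to 0.10), and Krt8 had Tapbp, Bin3 and Chmp7 (0.10 each). Of these 6 genes 4 lie on chromosome 14, namely Pbk, Elp3, Bin3 and Chmp7, whereas both keratin genes lie on chromosome 15. The 342 chromosome 14 genes with a mean of at least 6 were lower than WT/mock as a set. Their median differences were -0.41 on KO/mock and -0.48 on KO/ERRb-wt. Both keratins were also lower on those groups, so such a search draws on that shift, and a link to the chromosome was not tested. Epcam had Sfxn1, Maea and Vdac1 nearest (0.03 to 0.04), against an SD of 0.11.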

How the data were processed

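Each of 12 RNA samples was hybridised to 1 MoGene-2_0-st array. The authors deposited log2 values, which per the submitters' processing notes came from RMA as run by Affymetrix Expression Console; no version or genome build is stated. Because RMA equalises the arrays' distributions, shifts common to most genes are hidden, and values have no detection call. Of 41345 probe sets, 23521 carried exactly 1 gene symbol. Chromosomes and promoters were those of RefSeq on GRCm38.p6, and motifs were searched on both strands.

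All probe sets were fitted with limma 3.58.1 and statmod 1.5.0 in R 4.3.3, with 3 groups and clone as a random block (consensus correlation 0.0286), two-sided, adjusted by Benjamini-Hochberg. The fit was tested on simulated data with independent arrays and no clone effect, so that test could not check the handling of clones. Alternatives were clone handling, replicate number as a block, normalization, a filter on dim probe sets, the eBayes prior, other probe sets, the chromosome 14 shift, and leaving out each array or clone. List genes were named by a rule: per comparison, up to 4 called genes of smallest p, or otherwise the 1 of smallest p. Fgf5, Krt7, Krt19, Ctnnb1, Ctnnd1, Cdh3, Klf2, Dsp and Grhl1 were named outside that rule. Genes and lists were chosen with earlier results of these data known. Genes with a near pattern are the 3 nearest to each called gene.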

Additional observations from a re-analysis of the deposited data

Results flagged for a closer look

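Among 30 sets of 4 arrays tested (9 genes and Esrrb in 3 groups), 2 held an array far from the other 3 by Dixon's test, where chance flags about 1 set in 20. Both were Krt8. The array of KO/ERRb-wt clone 12-3 replicate 2 read 7.56 while its group's others read 7.23 to 7.27, and without it the difference from WT/mock became a call. The array of KO/mock clone 8-3 replicate 2 read 7.30 while its group's others read 7.05 to 7.09; the call between KO/mock and WT/mock held without it. The same array was the highest KO/mock array for Krt18, at 6.09.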

How the results depend on the processing

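Limma called 1602 probe sets between KO/mock and WT/mock, 1329 between KO/ERRb-wt and KO/mock and 6460 between KO/ERRb-wt and WT/mock. With clone averages (2 clones against 2) the counts were 10, 0 and 2251 (6124 at an unadjusted p under 0.05 where limma called 0); with only the 2 groups compared, KO/ERRb-wt against KO/mock gave 777. Leaving out a clone gave 531 (5-2) or 560 (8-4) between KO/mock and WT/mock, 761 (12-1), 333 (12-3) or 145 (8-3) between KO/ERRb-wt and KO/mock, and 3931 (12-3) or 3245 (5-2) between KO/ERRb-wt and WT/mock. Leaving out an array gave 888 to 1841, 544 to 1362 and 4822 to 6504. The split between KO/ERRb-wt and KO/mock, 404 higher and 925 lower, became 316 and 1152 with median centring and 444 and 608 with quantile normalization.

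Clone averages ended the calls of Grhl2 (0.74, adjusted p = 0.17), Krt18 (-0.61, 0.141) and Krt8 (-0.44, 0.153) between KO/mock and WT/mock, of Grhl2 between KO/ERRb-wt and KO/mock (0.50, 0.264), and of Krt18 (-0.56, 0.0535), Cdh2 (0.88, 0.0677) and Epcam (-0.20, 0.182) between KO/ERRb-wt and WT/mock. Grhl2 in that comparison was called under every alternative run. The filter on dim probe sets adds no support there. Grhl2 passed it only through the groups labelled knockout (6.70 and 6.19, against 5.45 on WT/mock). Krt18 passed it only through WT/mock (6.46, against 5.89 on KO/ERRb-wt and 5.85 on KO/mock). Between KO/mock and WT/mock, calls ended without clone 8-4 (Grhl2 0.69, Krt18 -0.51, Krt8 -0.38), without 5-2 (Krt8 -0.40) and with Krt18 averaged over its probe sets (-0.28; -0.16 between KO/ERRb-wt and WT/mock). The Grhl2 call between KO/ERRb-wt and KO/mock ended without 12-1 (0.50), 12-3 (0.51), 8-3 (0.45) or 8-4 (0.56), and that of Epcam between KO/ERRb-wt and WT/mock without 12-1 (-0.15), 5-2 (-0.20) or 5-5 (-0.21) and with only the 2 groups compared (-0.20). Calls were gained for Cdh2 between KO/ERRb-wt and KO/mock without probe sets of mean log2 under 6 (0.54; fewer were tested, and Cdh2 passed only through KO/ERRb-wt, at 6.52 against 5.98 on KO/mock and 5.64 on WT/mock, so this call supports nothing) and for Otx2 between KO/ERRb-wt and WT/mock with the chromosome 14 shift removed (0.50). The Otx2 call comes from the amount subtracted and supports nothing either. Leaving out an array gave Grhl2 0.46 to 0.52 between KO/ERRb-wt and KO/mock, Krt8 -0.50 to -0.41 between KO/mock and WT/mock and -0.32 to -0.21 between KO/ERRb-wt and WT/mock, and Epcam -0.24 to -0.17 in that last comparison. Where no reason is given, the cause was not tested.

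With replicate number as a block, Grhl2 between KO/ERRb-wt and KO/mock was 0.50 (adjusted p = 0.0715), no longer called, and no other call among the 9 genes changed; counts were 1365, 973 and 6011. Same-numbered arrays' deviations from group means correlated between -0.32 and 0.29, with a median of 0.04, against a median of -0.08 for different numbers. These deviations include clone differences within groups, so they cannot settle whether the numbers pair the arrays.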
